A study of Mus musculus with 6 samples.

Results

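Erg and 9 other transcription factor genes of the ETS family (Fli1, Ets1, Ets2, Etv5, Etv6, Elf1, Elf4, Gabpa and Spib) were examined in mouse bone marrow at the onset of disease. They were chosen by name, each was measured by its brightest probe set with exactly 1 gene symbol, and all 10 were found among the 19938 genes of the array. RNA came from bone marrow cells of 6 lethally irradiated CD45.1+ recipient mice that had received CD45.2+ LSK cells, the marrow fraction that holds stem and early progenitor cells. In 3 mice, called HoxA9AA/Meis1, the donor cells had been transduced with Meis1 and HoxA9AA-GFP, and in 3 mice, called HoxA9wt/Meis1, with Meis1 and HoxA9wt-GFP. All 6 mice thus carry introduced Meis1 and a form of introduced HoxA9, and marrow without them was not analysed here. HoxA9 and Meis1 are homeobox transcription factors that together drive acute myeloid leukaemia in mice. The sources used here do not give what AA changes in HoxA9, the promoter that drives the introduced genes, or the age, sex and strain of the mice. The marrow is not said to have been sorted, so that cells of the recipient and unmodified donor cells may contribute to each sample.

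ETS factors share a DNA-binding domain, the ETS domain, that recognises a core of GGAA. In blood, Erg and Fli1 maintain stem cells and megakaryocytes and bind enhancers together with Runx1, Gata2, Tal1, Lyl1 and Lmo2. Other members act in lymphocytes (Ets1, Spib), downstream of growth factor signalling (Ets2, Etv5), as repressors (Etv6), in quiescence (Elf4) or in general cell functions (Gabpa).

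The promoters of the ETS genes are shown because ETS factors can act on each other's genes, and because 4 of these genes lay higher in all mice of 1 group. RefSeq promoter windows of GRCm38.p6, from 250 bases before to 50 bases after a transcript start, were found for 8 of the 10 genes (13 windows). No window was found for Ets1 and Fli1, so the motif counts do not cover them. The 5 windows below belong to Erg, Etv6 and Elf4, which were higher in each HoxA9AA/Meis1 mouse than in any HoxA9wt/Meis1 mouse, and to Gabpa, whose groups overlapped. Capitals mark GGAA or its complement TTCC, the longer CCGGAA or TTCCGG, and TGACAG or CTGTCA, the letters that Meis proteins recognise.
Erg, start 1 (chr16:95586544-95586843, minus strand): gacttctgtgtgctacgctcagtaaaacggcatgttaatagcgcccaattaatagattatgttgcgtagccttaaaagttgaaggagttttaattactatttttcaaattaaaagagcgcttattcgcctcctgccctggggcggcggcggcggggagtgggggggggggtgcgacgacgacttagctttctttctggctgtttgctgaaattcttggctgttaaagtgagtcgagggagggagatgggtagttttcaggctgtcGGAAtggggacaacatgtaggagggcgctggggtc
Erg, start 3 (chr16:95459299-95459598, minus strand): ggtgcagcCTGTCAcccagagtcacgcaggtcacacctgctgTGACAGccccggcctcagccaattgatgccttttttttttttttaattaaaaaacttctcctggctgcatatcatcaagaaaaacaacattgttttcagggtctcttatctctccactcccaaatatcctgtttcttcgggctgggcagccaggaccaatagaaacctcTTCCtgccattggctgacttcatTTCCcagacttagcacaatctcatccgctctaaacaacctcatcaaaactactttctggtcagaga
Etv6 (chr6:134035450-134035749, plus strand): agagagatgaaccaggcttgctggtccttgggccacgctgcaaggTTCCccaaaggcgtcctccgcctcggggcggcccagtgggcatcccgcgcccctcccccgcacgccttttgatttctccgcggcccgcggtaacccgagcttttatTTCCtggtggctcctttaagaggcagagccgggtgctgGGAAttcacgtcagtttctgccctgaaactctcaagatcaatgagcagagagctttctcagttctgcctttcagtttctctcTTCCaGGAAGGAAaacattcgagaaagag
Elf4, start 1 (chrX:48463083-48463382, minus strand): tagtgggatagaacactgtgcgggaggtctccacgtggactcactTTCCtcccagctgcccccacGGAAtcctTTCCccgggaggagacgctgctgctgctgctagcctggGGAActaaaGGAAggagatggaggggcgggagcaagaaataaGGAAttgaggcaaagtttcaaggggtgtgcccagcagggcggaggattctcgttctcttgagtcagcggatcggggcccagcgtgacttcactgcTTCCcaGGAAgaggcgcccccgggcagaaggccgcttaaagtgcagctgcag
Gabpa (chr16:84834874-84835173, plus strand): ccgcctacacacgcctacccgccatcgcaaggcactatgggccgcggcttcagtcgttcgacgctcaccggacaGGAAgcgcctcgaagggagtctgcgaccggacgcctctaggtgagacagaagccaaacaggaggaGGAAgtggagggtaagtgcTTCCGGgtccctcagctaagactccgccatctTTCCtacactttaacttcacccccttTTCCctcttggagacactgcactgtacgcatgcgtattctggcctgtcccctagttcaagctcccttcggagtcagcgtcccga

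Start 1 of Erg and Elf4 is the first window listed for each, and start 3 of Erg is shown for the Meis letters it holds. The core GGAA on either strand occurred 8 times in the Elf4 window at start 1, 6 times in the Etv6 window, 5 times in the Gabpa window, and 1 and 2 times in the Erg windows at starts 1 and 3. The other windows of these genes, not shown, had 4 at Erg start 2 and 2 at Elf4 start 2. GGAA is a short motif that 96.0% of all 32851 RefSeq windows hold, with a median of 3 per window. The longer CCGGAA, which contains GGAA, was found in 1 of the 13 windows, that of Gabpa, where it begins at -92 relative to the start, and in 14.9% of all windows. TGACAG was found in 1 of the 13 windows, Erg at start 3, at -242 and at -208, and in 19.2% of all windows. The Hox and Pbx motif TGATTNAT, searched on both strands like the others, was in 0 of the 13 windows and in 3.22% of all windows. These matches describe the letters in the windows, and binding was not measured. A probe set sums the transcripts it detects, so the values below do not separate the starts of Erg or Elf4.

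Transcripts were measured on 6 Affymetrix arrays, 1 per mouse, and each value is a log2 expression level, so that 1 unit stands for a doubling. The median over all probe sets was 6.73 to 6.85 per array. As a background limit, the 95th percentile of 1027 olfactory receptor genes lay at 6.52 to 6.72. The introduced genes were read in all 6 mice, Hoxa9 at 8.76 ± 0.29 in HoxA9AA/Meis1 marrow and 8.36 ± 0.53 in HoxA9wt/Meis1 marrow (SD, n = 3 each), and Meis1 at 9.53 ± 1.04 in HoxA9AA/Meis1 marrow and 9.61 ± 0.52 in HoxA9wt/Meis1 marrow, with no separation of introduced from endogenous transcripts. Over all genes, HoxA9AA replicate 2 correlated with the HoxA9wt arrays at r = 0.989 to 0.991, and HoxA9AA replicates 1 and 3 at 0.958 to 0.970. These 2 mice therefore stand apart from the other 4, and also from each other (r = 0.963).

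Erg, Ets1, Etv6 and Elf4 were higher in every HoxA9AA/Meis1 mouse than in any HoxA9wt/Meis1 mouse, while Fli1, Ets2, Etv5, Elf1, Gabpa and Spib overlapped between the groups. The differences of the 4 genes were 0.94 for Erg, 1.04 for Ets1, 0.64 for Etv6 and 0.42 for Elf4 on the log2 scale, which are ratios of 1.91, 2.06, 1.56 and 1.34. In each of the 4, HoxA9AA replicate 1 stood highest, then replicate 3, then replicate 2, which lay nearest to the HoxA9wt/Meis1 mice. None of the 4 passed the test over all genes. With limma and Benjamini-Hochberg adjustment, 0 of the 10 factors and 0 of 19938 genes (0.00%) had an adjusted p under 0.05, while 1344 genes had an unadjusted p under 0.05 with limma and 958 without moderation of the variance. In whole marrow, a larger share of cells with a transcript and more of that transcript per cell cannot be told apart.

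The separation of 4 of the 10 factors upwards compares with 6.60% of all genes, and the 0 factors separated downwards with 4.80%. All 4 had an unadjusted p under 0.05 (limma) towards higher values, which 4.15% of all genes had. Towards lower values 0 of the 10 had one, where 2.59% of all genes did. In the limma fit without moderation of the variance, the unadjusted p was 0.066 for Ets1 and 0.065 for Etv6. Erg (0.025) and Elf4 (0.0067) stayed under 0.05 in that fit. With averaged probe sets the unadjusted p of Elf4 was 0.103 (limma). Erg, Ets1 and Etv6 were higher by 0.5 or more in HoxA9AA/Meis1 marrow, as were 2.89% of all genes. Among the 10541 genes above the background limit on all arrays, 9.52% separated upwards, 4.75% separated downwards and 6.80% had an unadjusted p under 0.05 towards higher values. Of the 10 factors 7 are among these genes, with Erg, Etv6 and Elf4 but without Ets1. The order of mice shared by the 4, with HoxA9AA replicates 1, 3 and 2 in turn above all HoxA9wt/Meis1 mice, was seen in 1.99% of all genes. The factors were picked with earlier results known, and the order was noticed in these values, so these shares are a description. Of the 10 factors, 6 had a higher and 4 a lower mean in HoxA9AA/Meis1 marrow, where 52.7% of all genes had a higher mean. Their median difference was 0.18, and that of all genes 0.01.

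Erg encodes a factor required to maintain haematopoietic stem cells and is an oncogene in leukaemia. It measured 9.60, 8.74 and 9.43 in HoxA9AA/Meis1 replicates 1, 2 and 3, against 8.42, 8.23 and 8.31 in HoxA9wt/Meis1 replicates 1, 2 and 3. The HoxA9wt/Meis1 mice lay close together, while HoxA9AA replicate 2 and HoxA9wt replicate 1 were separated by 0.32, a gap wider than the range of 8.23 to 8.42 within HoxA9wt/Meis1. The difference was 0.94 ± 0.22 (SE; 95% confidence interval 0.40 to 1.47, for this gene alone), with an adjusted p of 0.731 (limma). Of all genes 0.481% had a difference as high or higher. Without HoxA9AA replicate 2 the difference was 1.20 and Erg passed (adjusted p = 0.0446), a call that rests on leaving out the HoxA9AA/Meis1 mouse nearest to the HoxA9wt/Meis1 values. The adjusted p lay between 0.585 and 0.891 under the other settings with all 6 arrays.

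Ets1, a factor of lymphocytes and endothelium, had the largest difference of the 10. It measured 8.35, 7.19 and 8.23 in HoxA9AA/Meis1 replicates 1, 2 and 3, against 7.18, 6.94 and 6.53 in HoxA9wt/Meis1 replicates 1, 2 and 3. HoxA9AA replicates 1 and 3 were more than 1 above all other mice, whereas HoxA9AA replicate 2 and HoxA9wt replicate 1 were 0.01 apart, so the separation of the groups is within the rounding of the values. After quantile normalization the groups overlapped. The difference was 1.04 ± 0.33 (SE; 95% confidence interval 0.24 to 1.84; limma, adjusted p = 0.731), and 1.41 without HoxA9AA replicate 2 (adjusted p = 0.0794). HoxA9wt replicate 3, at 6.53, was below the background limit of its array, so the level in that mouse is uncertain.

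Etv6, also called Tel, is a repressor needed for stem cells in adult marrow and a frequent partner in leukaemia gene fusions. It measured 10.99, 10.22 and 10.74 in HoxA9AA/Meis1 replicates 1, 2 and 3, against 10.16, 9.79 and 10.08 in HoxA9wt/Meis1 replicates 1, 2 and 3. The groups parted by 0.06 only, between HoxA9AA replicate 2 and HoxA9wt replicate 1, and the difference was 0.64 ± 0.21 (SE; 95% confidence interval 0.13 to 1.15; limma, adjusted p = 0.731).

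Elf4, also called Mef, moves quiescent stem cells into the cell cycle and acts in interferon responses and in cytotoxic lymphocytes. It measured 11.13, 10.90 and 11.08 in HoxA9AA/Meis1 replicates 1, 2 and 3, against 10.67, 10.54 and 10.65 in HoxA9wt/Meis1 replicates 1, 2 and 3. It was the most even of the 4 genes, with an SD of 0.12 in HoxA9AA/Meis1 and 0.07 in HoxA9wt/Meis1, and HoxA9AA replicate 2 lay 0.23 above the nearest HoxA9wt/Meis1 mouse. The difference was 0.42 ± 0.10 (SE; 95% confidence interval 0.18 to 0.65; limma, adjusted p = 0.731). A weaker probe set of Elf4, with 5.64 to 5.97 in HoxA9AA/Meis1 and 5.79 to 5.97 in HoxA9wt/Meis1, lay below the background limit on all 6 arrays, and averaging it in lowered the difference to 0.18.

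**Figure D1:**
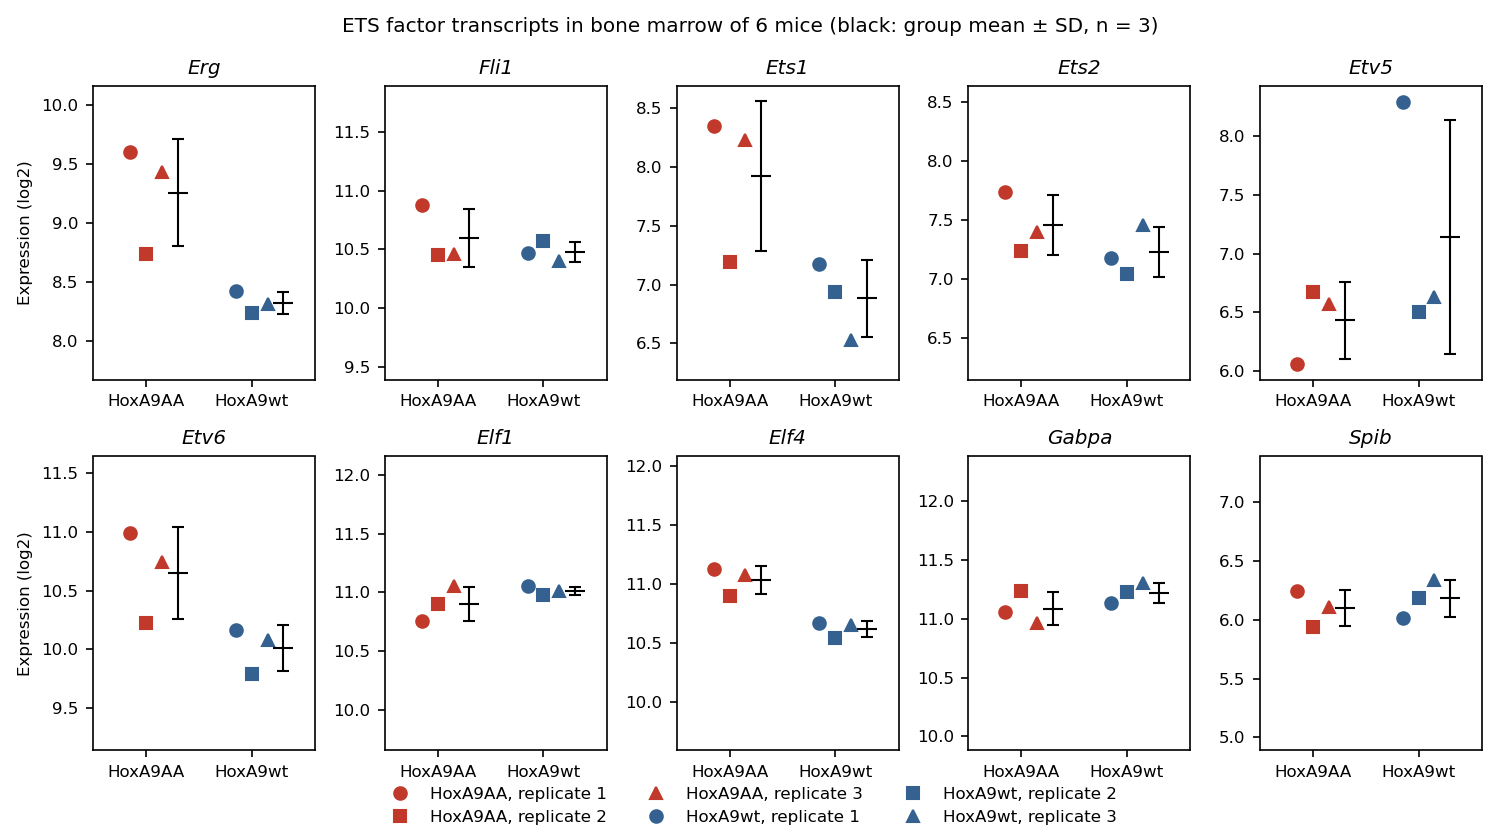
Expression (log2, vertical axis, the same span in each panel) of the 10 ETS factors in the 6 mice. Each symbol is a mouse and black bars show the group mean ± SD (n = 3); for Erg, Ets1, Etv6 and Elf4 all HoxA9AA mice lie above all HoxA9wt mice, for Ets1 by 0.01 only, and Etv5 has a single high mouse, HoxA9wt replicate 1 at 8.29.

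The closest relatives of Erg and Ets1 overlapped between the groups. Fli1, the factor most like Erg, which acts in stem cells and megakaryocytes, measured 10.88, 10.45 and 10.46 in HoxA9AA/Meis1 replicates 1, 2 and 3, against 10.47, 10.57 and 10.40 in HoxA9wt/Meis1 replicates 1, 2 and 3. HoxA9AA replicate 1 was high and the other 5 mice lay within 10.40 to 10.57. The difference of 0.12 (95% confidence interval -0.22 to 0.45; adjusted p = 0.918) turned to -0.025 without HoxA9AA replicate 1. Ets2, a target of Ras and ERK signalling, measured 7.74, 7.24 and 7.40 in HoxA9AA/Meis1 replicates 1, 2 and 3, against 7.18, 7.04 and 7.46 in HoxA9wt/Meis1 replicates 1, 2 and 3. HoxA9AA replicate 1 was again the highest, but HoxA9wt replicate 3 lay above the other 2 HoxA9AA/Meis1 mice (difference 0.23, 95% confidence interval -0.17 to 0.64; adjusted p = 0.831). It was 0.09 without HoxA9AA replicate 1 and 0.35 without HoxA9wt replicate 3.

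In the RefSeq gene order Erg and Ets2 are neighbours on chromosome 16 and Ets1 and Fli1 on chromosome 9, with 0 measured genes between the members of either pair. The difference Erg minus Ets2 on the log2 scale, taken within each array, was 1.86, 1.50 and 2.03 in HoxA9AA/Meis1 replicates 1, 2 and 3, against 1.24, 1.19 and 0.85 in HoxA9wt/Meis1 replicates 1, 2 and 3. Ets1 minus Fli1 was -2.53, -3.26 and -2.23 in HoxA9AA/Meis1 mice, against -3.29, -3.63 and -3.87 in HoxA9wt/Meis1 mice. The means differed by 0.70 and 0.92, and for Ets1 minus Fli1 HoxA9AA replicate 2 and HoxA9wt replicate 1 were nearly equal. The pairs were chosen after their values were seen, so no test is given.

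The genes beside the ETS factors on their chromosomes had medians near 0. For the 20 measured genes beside Erg, 10 on either side, the median of the value minus the HoxA9wt mean was 0.04, 0.03 and 0.06 in HoxA9AA replicates 1, 2 and 3, where Erg itself stood at 1.28, 0.42 and 1.11. For the neighbours of Ets1 it was 0.15, -0.02 and 0.03, where Ets1 stood at 1.47, 0.31 and 1.35. For the neighbours of Etv6 it was -0.03, 0.04 and 0.00, where Etv6 stood at 0.98, 0.21 and 0.73. For those of Elf4, on chromosome X, it was -0.06, -0.06 and 0.04, where Elf4 stood at 0.51, 0.28 and 0.46. The median difference of the neighbours between the groups was between -0.03 and 0.07 for all 10 factors. Single neighbours did separate the groups. Of the 20 genes beside a factor, 0 (Erg) to 4 (Fli1, with Ets1 among them) separated upwards, and 3 beside Ets1, where 6.60% of all genes did. Downwards 0 to 2 separated, where 4.80% of all genes did.

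**Figure D2:**
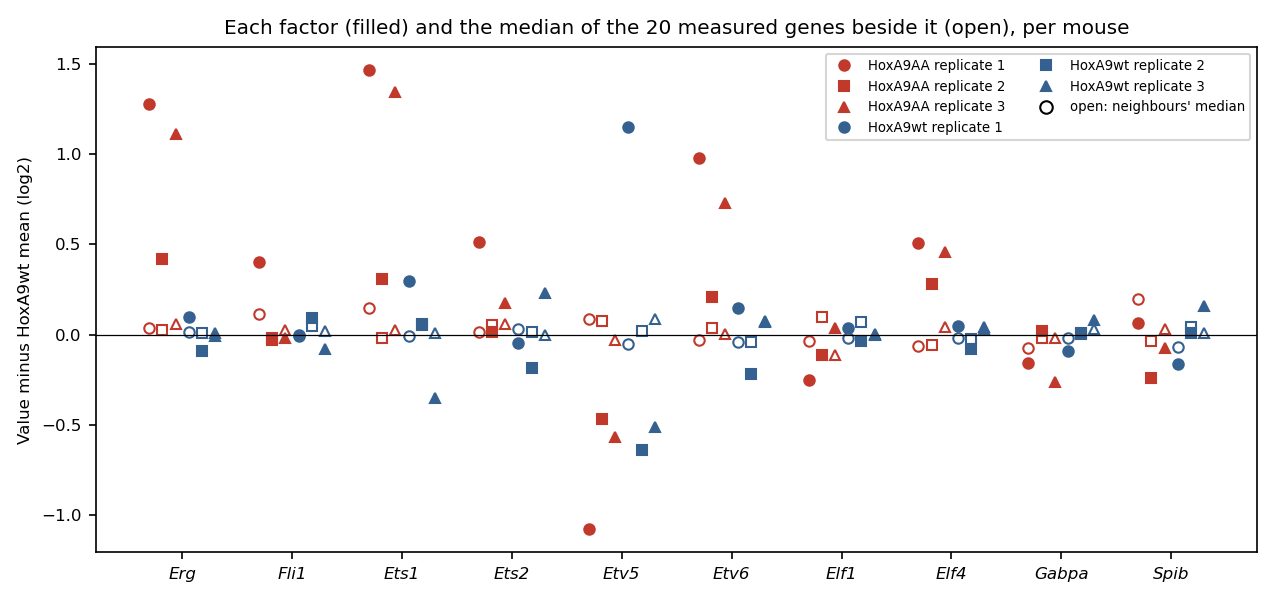
Value minus the HoxA9wt mean (log2, vertical axis) of each ETS factor (filled) and the median of the 20 measured genes beside it on its chromosome (open), for each of the 6 mice. The open symbols stay near 0, between -0.11 and 0.20, while Erg, Ets1 and Etv6 reach 1.28, 1.47 and 0.98 in HoxA9AA replicate 1.

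The remaining factors overlapped between the groups. Etv5, which responds to growth factor signalling through ERK, measured 6.06, 6.67 and 6.57 in HoxA9AA/Meis1 replicates 1, 2 and 3, against 8.29, 6.50 and 6.63 in HoxA9wt/Meis1 replicates 1, 2 and 3. HoxA9wt replicate 1 alone stood high, and a weaker Etv5 probe set was also highest there, at 6.43 against 5.67 to 5.92 in the other 5 mice. The difference of -0.71 (95% confidence interval -1.86 to 0.45; adjusted p = 0.820) was -0.13 without that mouse.

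Elf1, a factor of lymphoid and myeloid cells, measured 10.76, 10.90 and 11.05 in HoxA9AA/Meis1 mice, against 11.05, 10.98 and 11.01 in HoxA9wt/Meis1 mice (difference -0.11, 95% confidence interval -0.35 to 0.13). Gabpa, the DNA-binding subunit of GA-binding protein, which drives mitochondrial and ribosomal genes and is needed by stem cells, measured 11.06, 11.24 and 10.96 in HoxA9AA/Meis1 mice, against 11.13, 11.23 and 11.30 in HoxA9wt/Meis1 mice. Its difference was -0.13 (95% confidence interval -0.39 to 0.12), so a change as large as that of Erg lies outside the interval for Gabpa, as it does for Elf1. Spib, a relative of Spi1 in B cells and plasmacytoid dendritic cells, measured 5.94 to 6.25 in HoxA9AA/Meis1 and 6.02 to 6.34 in HoxA9wt/Meis1 marrow and was below the background limit on all 6 arrays, so no direction is given. Of the 10 factors 7 lay above that limit on all 6 arrays, Ets1 on 5, Etv5 on 4 and Spib on 0.

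No other measured ETS family gene separated the groups, which over all genes 6.60% did upwards and 4.80% downwards, so that a count of 0 among so few genes is near the background. Of 16 further genes on the list 15 were measured (Fev had no probe set of its own symbol), 12 with a higher and 3 with a lower mean in HoxA9AA/Meis1 marrow, 0 with an adjusted p or an unadjusted p under 0.05 (limma), and with a median difference of 0.05. Spi1, which encodes PU.1, the master factor of macrophages and neutrophils, measured 9.32, 9.40 and 9.39 in HoxA9AA/Meis1 mice, against 9.35, 9.30 and 9.39 in HoxA9wt/Meis1 mice. It was the steadiest of the family, with a difference of 0.02 (95% confidence interval -0.17 to 0.21).

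Elk1, Elk3 and Elk4 are ternary complex factors, which bind DNA with serum response factor. Elk1 measured 9.14, 8.13 and 8.27 in HoxA9AA replicates 1, 2 and 3, against 8.11 to 8.26 in HoxA9wt/Meis1 mice. HoxA9AA replicate 1 alone was high for Elk1. Elk4 differed by 0.22 and Elk3 by 0.05, with overlap and no such single mouse. Etv3, a repressor of macrophage proliferation, was at 8.76 in HoxA9AA replicate 3 and at 7.65 to 7.96 in the other 5 mice. Elf2, a relative of Elf1 and Elf4, differed by 0.21. Erf, a repressor controlled by ERK, differed by 0.04, Spdef by 0.07 and Etv4 by -0.12. The 6 measured family genes not named here were below the background limit on at least 3 arrays.

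**Figure D3:**
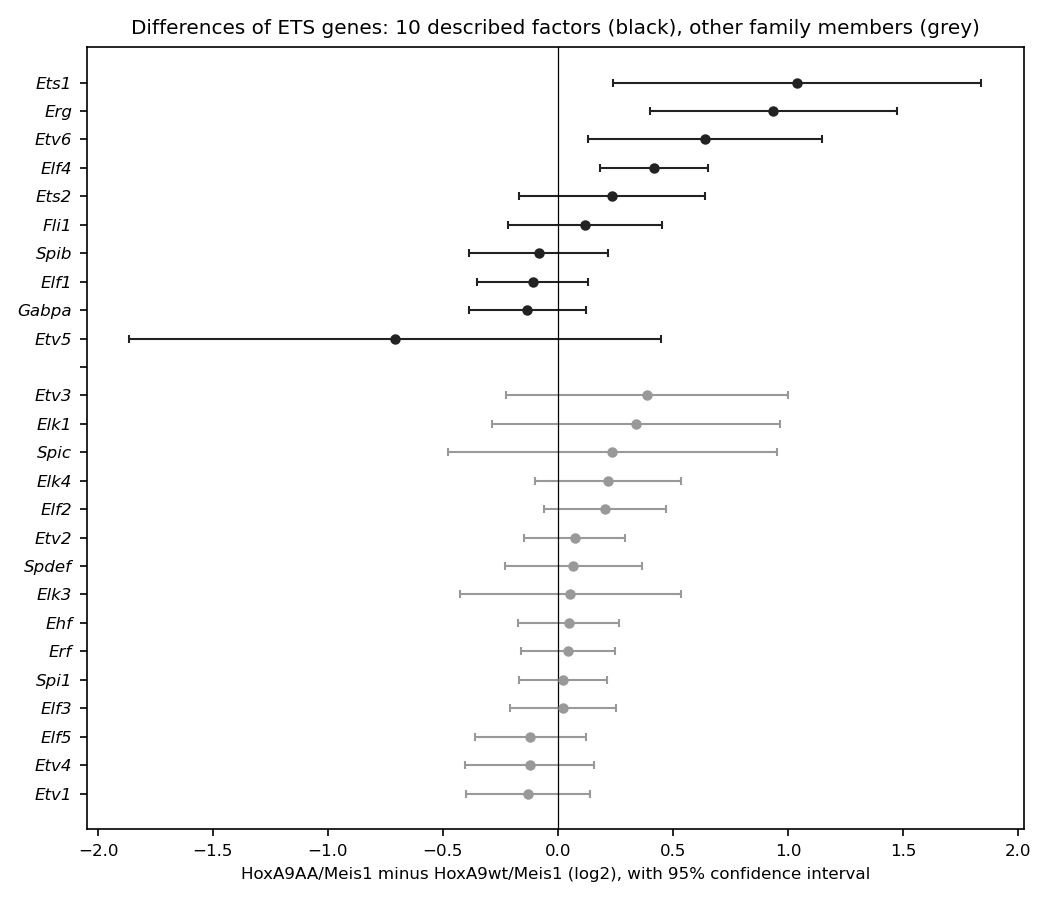
Difference HoxA9AA/Meis1 minus HoxA9wt/Meis1 (log2, horizontal axis) with its 95% confidence interval from limma for the 10 ETS factors (black) and 15 other family genes (grey). The intervals of Ets1, Erg, Etv6 and Elf4 lie above 0, at 0.24, 0.40, 0.13 and 0.18 at their lower ends, without adjustment for the number of genes, and all other intervals include 0.

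All 5 factors that bind enhancers with Erg and Fli1 in stem cells had a higher mean in HoxA9AA/Meis1 marrow. Over all genes, 52.7% had a higher mean. The median difference of the 5 was 0.26, with 0 past the test. Runx1 and Lyl1, 2 of the 5, separated upwards, where 6.60% of all genes did. Runx1 measured 10.34, 9.45 and 9.61 in HoxA9AA/Meis1 replicates 1, 2 and 3, against 8.92, 9.09 and 9.19 in HoxA9wt/Meis1 replicates 1, 2 and 3, so the groups did not overlap (difference 0.73; limma, adjusted p = 0.731). Lyl1, a bHLH factor of progenitors, measured 9.74, 9.30 and 9.56 in HoxA9AA/Meis1 mice and 9.01 in each of the 3 HoxA9wt/Meis1 mice (difference 0.52, adjusted p = 0.731). Gata2, at 7.06 to 7.69 in HoxA9AA/Meis1 and 7.11 to 7.26 in HoxA9wt/Meis1 mice, overlapped, as did Lmo2 (difference 0.10) and Tal1 (0.02).

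Genes reported as regulated by Erg, Fli1 or Gabpa showed no common direction. Of 18 measured genes of 22, 7 had a higher and 10 a lower mean in HoxA9AA/Meis1 marrow, with a median difference of -0.01 and 0 past the test. Runx1, also on the list above, was the 1 gene with separated groups towards higher values, where 6.60% of all genes separated upwards. Towards lower values 1 gene separated, the angiopoietin receptor gene Tek, where 4.80% of all genes did. The platelet chemokine gene Pf4 differed by -0.68 (5.74 to 6.17 in HoxA9AA/Meis1 and 5.98 to 7.35 in HoxA9wt/Meis1 mice). Pf4 was above the background limit on 2 arrays only, HoxA9wt replicates 1 and 2. Tek, below the background limit, differed by -0.13 (5.20 to 5.28 in HoxA9AA/Meis1 and 5.29 to 5.45 in HoxA9wt/Meis1 mice).

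Of 10 measured partners of ETS factors and proteins that control their turnover, 6 had a higher and 4 a lower mean in HoxA9AA/Meis1 marrow. With 0 past the test, their median difference was 0.03. Of the 10, 1 separated upwards (Sin3a), where 6.60% of all genes did. Downwards 2 separated (Cop1 and Usp9x), where 4.80% of all genes did. Cop1, part of a ubiquitin ligase that in human cells degrades the ETV factors of the Etv5 group, measured 9.77, 10.62 and 9.91 in HoxA9AA/Meis1 replicates 1, 2 and 3, against 10.82, 10.85 and 10.68 in HoxA9wt/Meis1 replicates 1, 2 and 3. The groups did not overlap, and HoxA9AA replicate 2 was close to the HoxA9wt/Meis1 mice (difference -0.68, adjusted p = 0.731). Usp9x, a deubiquitinase that in human cells stabilises ERG, measured 10.57, 10.83 and 10.51 in HoxA9AA/Meis1 mice, against 11.08, 10.93 and 10.89 in HoxA9wt/Meis1 mice (difference -0.33, adjusted p = 0.731). Spop, the ligase adaptor that in human cells marks ERG for degradation, was at 10.35 in HoxA9AA replicate 1 and at 10.88 to 11.04 in the other 5 mice. The partners of Gabpa, Gabpb1 and Gabpb2, differed by 0.11 and 0.15, and Sin3a, a corepressor that Etv6 recruits, by 0.18 with separated groups (adjusted p = 0.743).

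Of 2978 genes with a mean at or above the median of all probe sets and an SD of at least 0.3, those whose pattern over the 6 arrays was most like that of Erg were the histone demethylase gene Kdm5b (Pearson's r = 0.998, difference 1.37), the large Rab GTPase gene Rab44 (0.997) and Nbeal2 (0.997), a gene of platelet granule formation. Nbeal2 measured 8.51, 7.93 and 8.35 in HoxA9AA/Meis1 replicates 1, 2 and 3, against 7.80, 7.67 and 7.70 in HoxA9wt/Meis1 replicates 1, 2 and 3. Rab44 measured 9.75, 8.91 and 9.52 in HoxA9AA/Meis1 mice, against 8.71, 8.49 and 8.60 in HoxA9wt/Meis1 mice. Etv6 had r = 0.974 with Erg (rank 34) and Ets1 r = 0.960 (rank 76), among 96 genes above 0.95. Predicted and clone-named genes were left out of the 2978 genes and of these ranks. So were all symbols that begin like antigen receptor gene segments, such as Tra or Igh. These coefficients are descriptions over 6 arrays of which HoxA9AA replicates 1 and 3 are high.

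By the median over their genes, 2 marker lists also set HoxA9AA replicates 1 and 3 apart. Monocyte and macrophage markers had a lower mean in HoxA9AA/Meis1 marrow for 15 of 16 genes, and the median of the value minus the HoxA9wt mean was -1.06, -0.08 and -0.69 in HoxA9AA replicates 1, 2 and 3, against -0.07 to 0.11 in HoxA9wt/Meis1 mice. The mean level of these markers was 9.65, 10.81 and 9.90 in HoxA9AA replicates 1, 2 and 3, against 10.69 to 10.97 in HoxA9wt/Meis1 mice. Stem and progenitor markers stood at 0.47, -0.12 and 0.75 in HoxA9AA replicates 1, 2 and 3, against -0.13 to 0.04 in HoxA9wt/Meis1 mice, with 9 of 11 higher. By their mean level only HoxA9AA replicate 3 stood out, with 7.56, 7.38 and 8.36 in HoxA9AA replicates 1, 2 and 3, against 7.79, 7.12 and 7.53 in HoxA9wt replicates 1, 2 and 3. Kit, the stem cell factor receptor gene, measured 9.96, 8.43 and 10.49 in HoxA9AA/Meis1 mice, against 8.63, 7.54 and 8.38 in HoxA9wt/Meis1 mice. The receptor gene Flt3, on the same list, had a lower mean (difference -0.96), with 6.92, 10.13 and 10.85 in HoxA9AA replicates 1, 2 and 3, against 10.21, 9.87 and 10.69 in HoxA9wt/Meis1 mice. Primary granule markers were high in HoxA9AA replicate 1 (1.12) and at 0.02 and 0.21 in HoxA9AA replicates 2 and 3, against -0.21 to 0.27 in HoxA9wt/Meis1 mice. The part of these cell types in the values of Erg, Ets1, Etv6 and Elf4 was not tested.

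Further lists covered other cells known for ETS factors. Of 10 endothelial markers 5 were below the background limit on all 6 arrays, among them Kdr at 5.48 to 5.61 in HoxA9AA/Meis1 and 5.33 to 5.56 in HoxA9wt/Meis1 mice, and the mean level was 6.54 to 6.63 in HoxA9AA/Meis1 and 6.44 to 6.52 in HoxA9wt/Meis1 mice. Pecam1, an endothelial marker that leukocytes also express, measured 10.88, 9.87 and 10.94 in HoxA9AA/Meis1 mice, against 9.84, 8.96 and 9.32 in HoxA9wt/Meis1 mice. Of 12 B cell markers 11 had a higher mean and 7 were below the limit on all arrays, Cd79a among them, and the list stood at 0.15 to 0.22 in HoxA9AA/Meis1 and -0.03 to 0.00 in HoxA9wt/Meis1 mice. Of 13 T and NK cell markers 6 were higher and 7 lower, Cd3e measured 7.09 to 7.53 in HoxA9AA/Meis1 and 7.07 to 7.21 in HoxA9wt/Meis1 mice, and Thy1 measured 10.50, 7.21 and 10.72 in HoxA9AA replicates 1, 2 and 3, against 6.86 to 7.22 in HoxA9wt/Meis1 mice. Of 8 megakaryocyte and platelet markers 1 was higher and 6 lower, and the higher one, the integrin gene Itgb3, differed by 1.31 while Itga2b differed by -0.01. Plasmacytoid dendritic cell markers, the cells known for Spib, went 3 higher and 4 lower, with Siglech at 6.87 to 6.95 in HoxA9AA/Meis1 and 6.88 to 7.04 in HoxA9wt/Meis1 mice. Proliferation markers stood at 0.03 to 0.32 in HoxA9AA/Meis1 and -0.26 to 0.24 in HoxA9wt/Meis1 mice. Late neutrophil markers ranged from 0.15 to 1.48 in HoxA9AA/Meis1 and from -1.62 to 0.98 in HoxA9wt/Meis1 mice, erythroid markers were lower for 9 of 9 genes with HoxA9wt replicate 2 apart at 0.34, and mast cell and basophil markers went 5 higher and 3 lower.

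**Figure D4:**
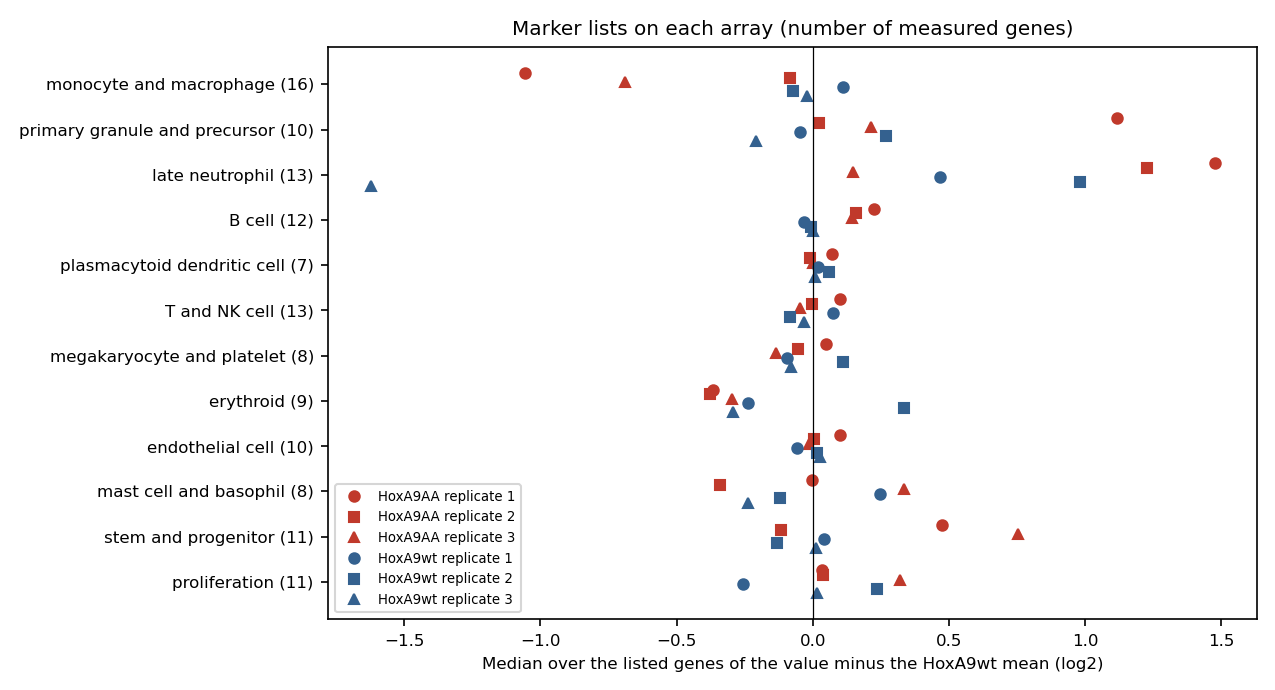
Median over the measured genes of each marker list of the value minus the HoxA9wt mean (log2, horizontal axis) on each of the 6 arrays, with the number of measured genes in brackets. HoxA9AA replicates 1 and 3 are low for monocyte and macrophage markers (-1.06 and -0.69) and high for stem and progenitor markers (0.47 and 0.75), and HoxA9AA replicate 2 lies with the HoxA9wt mice in both.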

How the data were processed

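Bone marrow RNA of 6 mice, 3 per group, was read on 6 Affymetrix whole-transcript gene arrays. The deposited values are log2 expression per probe set, made by the authors with the R package oligo and RMA, per the submitters' processing notes. The sources used here give no versions. RMA is a method of background correction, quantile normalization and summary per probe set. Quantile normalization removes global shifts, and with 1 value per probe set the number of mice limits precision. Of 35556 probe sets 21789 had 1 symbol, and the brightest per gene left 19938 genes. Entrez identifiers were compared with RefSeq GRCm38.p6 (0 symbols changed), which also gave the gene order. The array's build is not given, so no gene coordinates are printed except those of RefSeq promoter windows.

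The test was limma (version 3.58.1, R version 4.3.3) with lmFit and eBayes (two-sided, no block, threshold 0.05 after Benjamini-Hochberg adjustment over all genes). It was tested on simulated data. The factors, lists and tests were chosen with earlier results of these data known. Named were the 10 factors, Hoxa9 and Meis1, Spi1 and other ETS genes above background on all arrays, up to 3 genes with the smallest p per list, defining markers and the 3 genes most like Erg. Spop, Gabpb1, Gabpb2, Lmo2 and Tal1 were named after their values were seen.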

Additional observations from a re-analysis of the deposited data

How the results depend on the processing

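With all 6 arrays, the count of 0 called genes held under all 10 other settings: the replicate block, array weights, unmoderated variances, a robust eBayes fit with trend, filters at the median or at the 0.2 quantile of all values, centring on medians, a further quantile normalization, averaged probe sets, and a test of every probe set. Leaving out an array gave 0 to 48 called genes, 48 without HoxA9AA replicate 2 and 1 without HoxA9wt replicate 3. The difference of Erg was 0.84 to 0.96 with all arrays and 0.77 to 1.20 with an array left out, and passed only without HoxA9AA replicate 2. Same-numbered mice did not deviate together (r = -0.208, -0.103 and -0.013 for replicates 1, 2 and 3). Differently numbered mice had r = -0.160 to 0.239. With 3 arrays per group this cannot show whether the numbers pair the samples, and no source says what they mark. With the replicate number as a block, the difference of Erg was 0.94 (limma, adjusted p = 0.891) and 0 genes were called. Fli1 reversed without HoxA9AA replicate 1, with leave-one-out values from -0.025 to 0.19, and the cause was not tested. The other 8 factors kept their direction and stayed short of the threshold under all settings run. Settings added after seeing the data gave 4 to 5 factors separated upwards when an array was left out (Ets2 joined without HoxA9wt replicate 3). Of all genes, 9.76% to 16.9% separated upwards in these settings. After the further quantile normalization 3 factors separated upwards, without Ets1, where 9.52% of all genes did. Without HoxA9AA replicate 2, and likewise without HoxA9AA replicate 3, 1 factor separated downwards, for which the share of all genes was not computed. The weakly expressed Spib and Etv5 fell under the median filter and have no value there. Using 5 or 20 neighbours on either side, or brighter neighbours only, gave medians between -0.09 and 0.11.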
